A study of Homo sapiens with 15 samples.

Results

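The 12 libraries described here are the treated ones of a series of 15, and they form a layout of 2 compounds by 2 genotypes. K562, a human erythroleukaemia line derived from chronic myeloid leukaemia, was transfected with Cas9FCPF in all 4 groups, either together with an sgRNA (genotype Cas9FCPF+sgRNA) or without one (genotype Cas9FCPF-sgRNA). Cells then received JQ1-FCPF or JQ1, each at 1 µM, and were taken at 1 h. Members were chosen by these 2 labels alone and not by any measured value. Each of the 4 groups, named below JQ1-FCPF with sgRNA, JQ1-FCPF without sgRNA, JQ1 with sgRNA and JQ1 without sgRNA, holds 3 libraries. The 3 control libraries, of genotype WT and treatment NT in the labels, do not enter the tests. The labels name neither the locus that the sgRNA recognises nor the share of cells transfected, and they do not tie the replicates to separate cultures. The p-values therefore cover the spread between these libraries alone, which may be technical.

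The quantity tested was the difference of differences. For each gene, the log2 change with against without sgRNA under JQ1 was taken from the same change under JQ1-FCPF. This asks whether the sgRNA goes with another change under JQ1-FCPF than under JQ1. The same number is also the JQ1-FCPF against JQ1 difference with sgRNA, less that difference without sgRNA. A value below 0 is called lower here, and one above 0 higher. A lower value can come from a low level in JQ1-FCPF with sgRNA, from a high level in JQ1-FCPF without sgRNA, or from both, so the levels in the 4 groups are given for the genes described at length.

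JQ1 fills the acetyl-lysine pocket of the bromodomains of the BET proteins, and so takes them off acetylated histones. BET proteins help to bring the elongation kinase P-TEFb to promoters and enhancers, and in leukaemia lines the transcription of MYC is known for its dependence on them. TXNIP, HEXIM1 and several histone genes are known to rise when BET proteins are blocked. JQ1-FCPF shares its name with the tag on the transfected Cas9FCPF, and the series is titled as a chemically induced form of epigenome editing.

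Library totals ran from 12625669 to 17114429 counts, and 15218 genes had enough counts to be tested. All 10 erythroid markers checked, GATA1, TAL1, KLF1 and globin genes among them, were detected in every library, with a summed level of 1643 to 2400.28 CPM (counts scaled to a common library total). Of 17 markers of other cell types, MS4A1, CD2 and LUM were at or near 0, whereas CD3D, EPCAM, KRT19, LYZ and COL1A1 (1.91 to 6.13 CPM) were among those detected in all 12 libraries. The 5 fibroblast markers summed to 4.4 to 6.75 CPM in JQ1-FCPF with sgRNA, 2.09 to 2.31 CPM in JQ1-FCPF without sgRNA, 3.49 to 4.71 CPM in JQ1 with sgRNA and 3.37 to 3.6 CPM in JQ1 without sgRNA. Their part in the results was not tested. Replicate 2 of JQ1-FCPF with sgRNA stood apart from its group. In a principal component analysis the first axis held 29.4% of the variance, and on it this library lay at -22.7 beside the 6 JQ1 libraries (-19.7 to -14.3), while replicates 1 and 3 lay at 32.6 and 26.9 and the 3 libraries of JQ1-FCPF without sgRNA at 17.9 to 23.1. Over the 686 genes that differed between the compounds without sgRNA, on a scale with JQ1 without sgRNA at 0 and JQ1-FCPF without sgRNA at 1, its median position was 0.02, against 0.75 and 0.74 for replicates 1 and 3. Replicate 1 of JQ1 with sgRNA also stood apart, with 7.46% of its counts from mitochondrially encoded genes against 2.31 to 5.7% in the other 11 libraries. Results are therefore given with and without these 2 libraries where that matters.

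Of the 15218 genes, 81 (0.532%) had a difference of differences that passed an adjusted p of 0.05 in edgeR's quasi-likelihood test. It was lower for 65 genes (0.427%) and higher for 16 (0.105%), and 49 of the 81 exceeded 2-fold. The 65 lower genes had a median of -1.05 on the log2 scale and the 16 higher ones a median of 1.17, while the median over all genes tested was 0.00. At an unadjusted p under 0.05 there were 1874 genes. Under JQ1-FCPF, 672 genes (4.42%) differed with against without sgRNA. All 65 lower genes fell there (3.19% of all genes did) and all 16 higher genes rose (1.23%). This change, like the compound differences below, is part of the difference of differences itself. Its overlap with the 81 thus describes the calls and does not add to them. Under JQ1, 2 genes (0.0131%) differed, HES1 and BHLHE40, both lower with sgRNA, with 1051 at an unadjusted p under 0.05. Across the 65 lower genes the median sgRNA change was -1.12 under JQ1-FCPF and 0.01 under JQ1. Across the 16 higher genes it was 1.28 and 0.12. JQ1-FCPF and JQ1 differed at 285 genes (1.87%) with sgRNA and at 686 (4.51%) without it, with 1.13% lower and 0.743% higher in the first and 2.41% higher and 2.1% lower in the second. With sgRNA, 40 of the 65 genes were lower under JQ1-FCPF and 11 of the 16 were higher. Without sgRNA, 23 of the 65 were higher under JQ1-FCPF and 3 of the 16 were lower. The counts of these pairs rested on single libraries. Leaving out each in turn gave 50 to 2456 calls with sgRNA (lowest without replicate 1 and highest without replicate 2 of JQ1-FCPF with sgRNA), 1 to 2001 without sgRNA (lowest without replicate 3 of JQ1-FCPF without sgRNA and highest without replicate 2 of JQ1-FCPF with sgRNA), 271 to 1041 for the sgRNA under JQ1-FCPF (lowest without that same replicate 3 and highest without replicate 1 of JQ1 with sgRNA) and 0 to 4 for the sgRNA under JQ1 (0 without replicate 1 or 3 of JQ1 without sgRNA, replicate 1 or 2 of JQ1 with sgRNA, or replicate 2 or 3 of JQ1-FCPF without sgRNA).

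**Figure D1:**
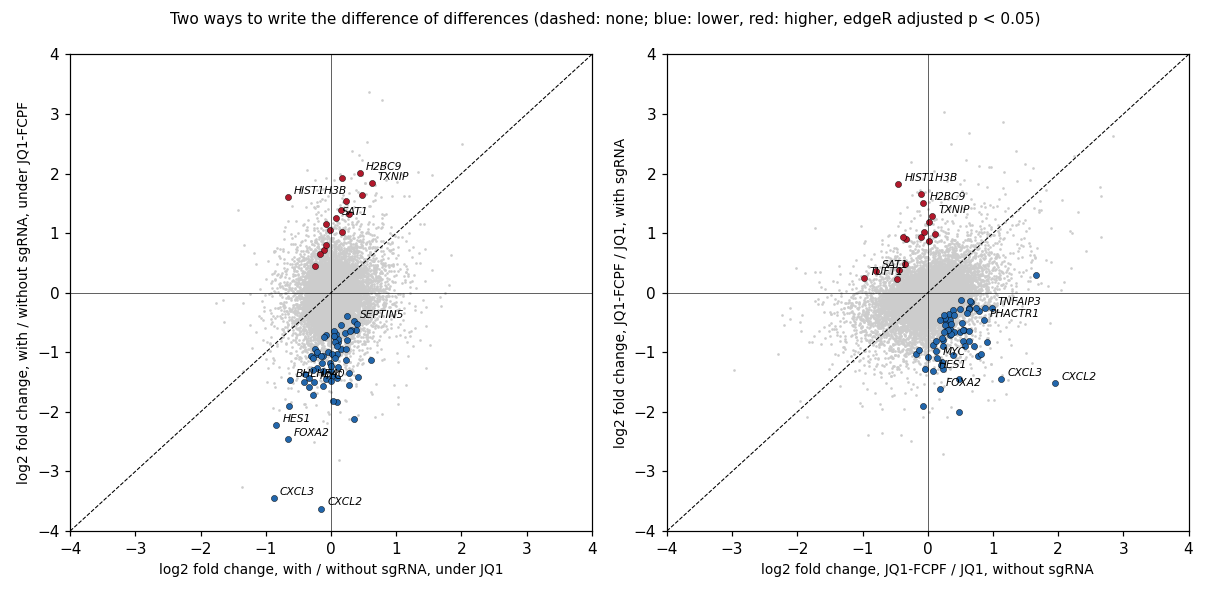
Each grey point is 1 of 15218 genes. The left panel sets the log2 fold change with against without sgRNA under JQ1 (x axis) beside that under JQ1-FCPF (y axis), and the right panel sets the log2 fold change of JQ1-FCPF against JQ1 without sgRNA (x axis) beside that with sgRNA (y axis). The vertical distance from the dashed line is the difference of differences, blue for the 65 genes called lower and red for the 16 called higher. On the x axis of the left panel the coloured genes have medians of 0.01 (blue) and 0.12 (red). Single genes lie further from 0 there, such as CXCL3 at -0.88, HES1 at -0.84 and AC010973.2 at 0.61.

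The 81 genes fell into a few shapes, read from which group had its 3 libraries all above or all below the 9 others. These shapes use the same levels as the test, so they describe the calls and do not add to them. Of the 65 lower genes, 25 had JQ1-FCPF with sgRNA alone at the bottom, 11 had JQ1-FCPF without sgRNA alone at the top, and 26 had both. For the remaining 3 neither group stood apart. Counted singly, JQ1-FCPF with sgRNA was lowest for 51 of the 65 (2.81% of all genes), and JQ1-FCPF without sgRNA was highest for 37 (4.26% of all genes). Of the 16 higher genes, 10 had JQ1-FCPF with sgRNA alone at the top, 3 had JQ1-FCPF without sgRNA alone at the bottom, and 3 had both (1.45% and 3.15% of all genes have these groups highest and lowest). JQ1 with sgRNA stood apart for none of the 81 (0.802% of all genes have it lowest and 0.782% highest). JQ1 without sgRNA did for 3 (1.62% of all genes have it highest and 1.15% lowest). On the unlogged scale the difference of differences kept its sign for all 81.

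MYC, the transcription factor that drives growth and ribosome production, had JQ1-FCPF with sgRNA alone at the bottom. The gene (ENSG00000136997, GRCh38 chr8:127735434-127741434) stood at 60.4, 57.3 and 61.1 CPM in the 3 libraries of JQ1-FCPF with sgRNA. It stood at 198, 136 and 172 CPM in JQ1-FCPF without sgRNA, at 103, 123 and 156 CPM in JQ1 with sgRNA and at 156, 162 and 143 CPM in JQ1 without sgRNA. The first 3 values lie below all 9 others and close together, with replicate 2 no higher than its partners. With the sgRNA, MYC fell by 1.50 (log2) under JQ1-FCPF (adjusted p = 5.30e-06), and the value under JQ1 was -0.27 (adjusted p = 0.7). The difference of differences was -1.24 ± 0.20 (SE, adjusted p = 0.00715), which is 2.36-fold. Without sgRNA the 2 compounds differed at MYC by 0.14 (95% interval -0.16 to 0.43, adjusted p = 0.593), and with sgRNA by -1.10 (adjusted p = 5.92e-04). The control libraries, on a scale set over all 15, had 196.8 ± 8.74 CPM (SD, n = 3). In these bulk libraries, fewer cells with the message and less message per cell cannot be told apart.

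Of 12 tested genes of MYC and its partners, which are the MAX, MXD and MLX proteins that bind DNA with it or against it, 1 was called, MYC itself, and the median of the list was -0.07. None of the 56 genes of ribosome biogenesis and other MYC targets was called, with a median of -0.03. Without the 2 libraries that stand apart 1 was called higher and 2 lower, and the median was 0.04 without replicate 2 of JQ1-FCPF with sgRNA and -0.11 without replicate 1 of JQ1 with sgRNA. Among 15182 of the 15218 genes, 171 were called higher and 301 lower without both libraries. List counts in that setting are to be read beside these.

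HES1 and BHLHE40 differed from MYC in that the sgRNA change was also called under JQ1. Both encode repressors of the basic helix-loop-helix class, and HES1 is a main target of Notch signalling. HES1 (chr3:194136145-194138732) stood at 15, 14 and 15.5 CPM in JQ1-FCPF with sgRNA and at 29.8, 38.5 and 42.2 CPM in JQ1 with sgRNA. Without sgRNA it stood at 62.5, 73.3 and 72.3 CPM under JQ1-FCPF and 69.8, 57.3 and 70.5 CPM under JQ1, and these 2 groups overlap. It fell by 2.22 under JQ1-FCPF and by 0.84 under JQ1 (adjusted p = 2.85e-08 and 0.022), so that the difference of differences was -1.39 ± 0.18 (adjusted p = 0.00368). BHLHE40 stood at 45.2, 52.9 and 43.5 CPM in JQ1-FCPF with sgRNA, 129.8, 129 and 134 CPM without, 95.1, 93.5 and 98.4 CPM in JQ1 with sgRNA and 144, 153 and 147 CPM without. Its 4 groups do not overlap, and it fell by 1.47 under JQ1-FCPF and by 0.63 under JQ1, with a difference of differences of -0.84 (adjusted p = 0.00702). HEY1, a relative of HES1, was also lower (-1.04, adjusted p = 0.0381). These were the 3 called among 19 tested genes of the Notch, HES and BHLH list, whose median was 0.02, and -0.05 without replicate 2 of JQ1-FCPF with sgRNA.

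Other genes also had JQ1-FCPF with sgRNA alone at the bottom. FOXA2, a forkhead factor of endoderm present at a low level here, stood at 1.38, 2.05 and 1.72 CPM in JQ1-FCPF with sgRNA against 9.19, 8.79 and 10.5 CPM without, 4.14, 6.23 and 5.51 CPM in JQ1 with sgRNA and 9.01, 7.86 and 8.19 CPM without. Its difference of differences was -1.80 ± 0.28 (adjusted p = 0.00574). E2F2, which drives genes of DNA replication, stood at 11.5, 14.9 and 12.9 CPM in JQ1-FCPF with sgRNA, and the 9 other libraries lay between 20.1 and 28.3 CPM. Its value was -1.13 ± 0.18 (adjusted p = 0.00702), and it was the 1 called of 43 tested E2F and S phase genes (2 without replicate 2 of JQ1-FCPF with sgRNA). TGIF1, a corepressor of SMAD signalling, had -0.96 (adjusted p = 0.00793). OTX1, a homeobox factor, had -1.41, RHOH, a haematopoietic GTPase, -1.24, and CLCF1, a cytokine of the interleukin-6 family, -1.38. The sgRNA change under JQ1 was -0.66 for FOXA2, -0.40 for TGIF1 and -0.34 for RHOH. It was -0.07 for CLCF1, 0.01 for OTX1 and 0.10 for E2F2, and none of these passed the test.

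**Figure D2:**
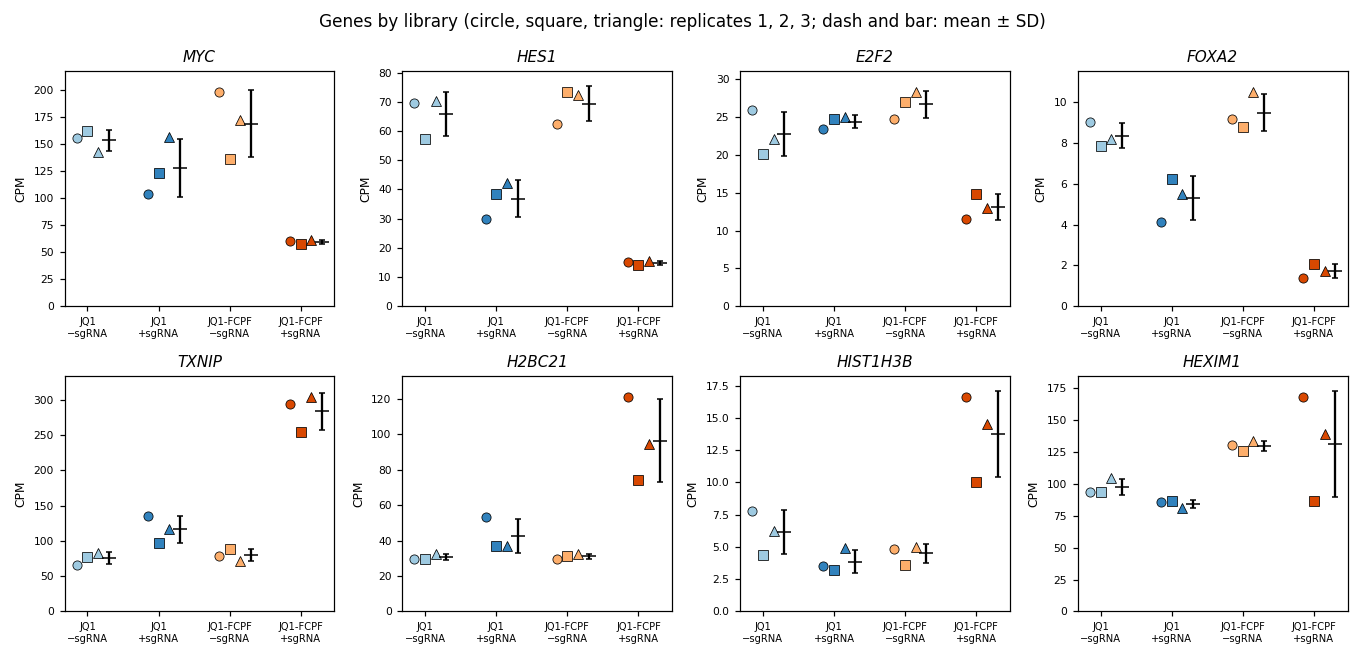
CPM (y axis, from 0) in the 12 libraries for 8 genes. Circle, square and triangle are replicates 1, 2 and 3 of each group, and the dash and bar are the mean ± SD of the 3. MYC, HES1, E2F2 and FOXA2 have their lowest 3 libraries in JQ1-FCPF with sgRNA, TXNIP, H2BC21 and HIST1H3B their highest 3, and HEXIM1 shows replicate 2 of that group at 86.6 CPM among the JQ1 libraries.

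For 26 lower genes the 2 JQ1-FCPF groups lay on opposite sides of the JQ1 libraries, and 2 chemokine genes had the largest differences of differences of the 65. CXCL2, a neutrophil attractant, stood at 0.307, 0.472 and 0.369 CPM in JQ1-FCPF with sgRNA and at 3.58, 5.68 and 5.16 CPM without it. Under JQ1 it stood at 1.05, 1.38 and 0.918 CPM with sgRNA and 1.3, 0.735 and 1.67 CPM without, and these 2 groups overlap. The difference of differences was -3.47 ± 0.51 (adjusted p = 0.00521). CXCL3, its close paralog, stood at 0.538, 0.866 and 0.738 CPM with sgRNA and 6.66, 7.4 and 9.55 CPM without under JQ1-FCPF, and its value was -2.56 ± 0.43 (adjusted p = 0.00801). Both are low, and reads of these near-identical genes may be shared between them. NFKBIA, which encodes the inhibitor that holds NF-kB in the cytoplasm, stood at 9.14, 7.48 and 9.59 CPM in JQ1-FCPF with sgRNA and 21.4, 23.1 and 20.7 CPM without. It stood at 11, 14.7 and 15.1 CPM in JQ1 with sgRNA and 16.5, 13.7 and 14.3 CPM without, with a difference of differences of -1.19 ± 0.21 (adjusted p = 0.0122). TNFAIP3, an enzyme that dampens NF-kB signalling, stood at 6.91, 8.98 and 7.86 CPM in JQ1-FCPF without sgRNA, and the 9 other libraries lay between 3.3 and 4.33 CPM. Its value was -1.23 ± 0.25 (adjusted p = 0.0348), and here JQ1-FCPF with sgRNA did not stand apart. The control means of CXCL2, NFKBIA and TNFAIP3 were 4.04, 23.6 and 7.84 CPM.

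These 4 were the called members of 23 tested NF-kB targets (of 33 listed), all lower, with a list median of -0.23. Over all genes 65 of 15218 were called lower and 16 higher. Of the 23, 15 lay below 0 and 8 above. Without the 2 libraries that stand apart, 1 was called higher and 5 lower (171 and 301 of 15182 over all genes). CXCL8, a further chemokine, had a value of -1.47 (adjusted p = 0.115), and the subunits RELA, NFKB1 and NFKB2 had -0.06, -0.23 and 0.33.

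Further genes with both JQ1-FCPF groups apart came from several classes. LPAR5, a receptor for lysophosphatidic acid, stood at 6.14, 5.51 and 6.64 CPM in JQ1-FCPF with sgRNA and 20.3, 18 and 22.3 CPM without, and the 6 JQ1 libraries lay between 10.4 and 13.7 CPM. Its difference of differences was -1.44 ± 0.19, with an adjusted p of 0.00368, equal to that of HES1 and the smallest of all. PHACTR1, which binds actin and protein phosphatase 1, stood at 13.4, 9.29 and 13.7 CPM in JQ1-FCPF with sgRNA, at 32.5, 30.3 and 27.7 CPM without, and between 15.9 and 17.8 CPM in the 6 JQ1 libraries. Its sgRNA change was -1.31 under JQ1-FCPF (adjusted p = 1.19e-05) and 0.00 under JQ1, and the compounds differed by 0.86 without sgRNA (adjusted p = 0.00902), against a value of -0.45 with it (adjusted p = 0.107). ZNF689, a zinc finger protein, had -1.62 ± 0.23 (adjusted p = 0.00521). CCND1, the cyclin that starts G1 progression, stood at 26.4, 26.9 and 25.8 CPM with sgRNA and 56, 56.3 and 53.2 CPM without under JQ1-FCPF, and at 36.5 to 47.6 CPM under JQ1 (-0.94 ± 0.14, adjusted p = 0.00574). SNHG15, a host of small nucleolar RNAs, had -1.15 (adjusted p = 0.00702) and was called with SNHG20 (-0.93, JQ1-FCPF with sgRNA alone at the bottom) among 19 tested hosts, of which 4 were called higher and 2 lower without the 2 libraries that stand apart. CITED2, a coactivator partner, had -1.43, CYP26A1, which breaks down retinoic acid, -1.26, SOCS2, a feedback inhibitor of STAT5, -0.69, and LMO2, a bridging protein of the erythroid complex, -0.64. On the scale set over all 15 libraries, LPAR5, PHACTR1, ZNF689, CCND1 and SNHG15 had control means of 20.9, 28.0, 18.5, 50.2 and 43.85 CPM. JQ1-FCPF without sgRNA had 20.2, 30.1, 15.8, 55.1 and 50.85 CPM there. For CITED2, CYP26A1, SOCS2 and LMO2 the control had 23.8, 12.12, 151 and 68.9 CPM, and that group 21.5, 12.05, 153 and 67.95 CPM. LMO2 was the 1 called of 37 tested erythroid genes, whose median was -0.13, and SOCS2 the 1 of 12 STAT5 targets, with a median of -0.16. Both counts moved with the libraries used. Without the 2 that stand apart 8 erythroid genes and 3 STAT5 targets were called lower (301 of 15182 over all genes). Without replicate 2 of JQ1-FCPF with sgRNA alone the counts were 5 and 3 (172 of 15218 over all genes). Without replicate 1 of JQ1 with sgRNA alone they were 3 and 1 (66 of 15161). Of 21 tested forkhead and CITED genes FOXA2 and CITED2 were called, of 17 ERK feedback genes CCND1, and of 12 retinoic acid genes CYP26A1, all lower. The lists were chosen with earlier results of these data known, so such counts describe single members and not the families. The medians of these lists were -0.11, -0.16 and -0.18, and without the 2 libraries that stand apart 3, 2 and 2 of their genes were called lower. Of 17 SMAD feedback and ID genes TGIF1 was lower and SMAD6 higher, and the median was 0.00, with values between -0.03 and 0.12 when these libraries were left out singly or together.

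**Figure D3:**
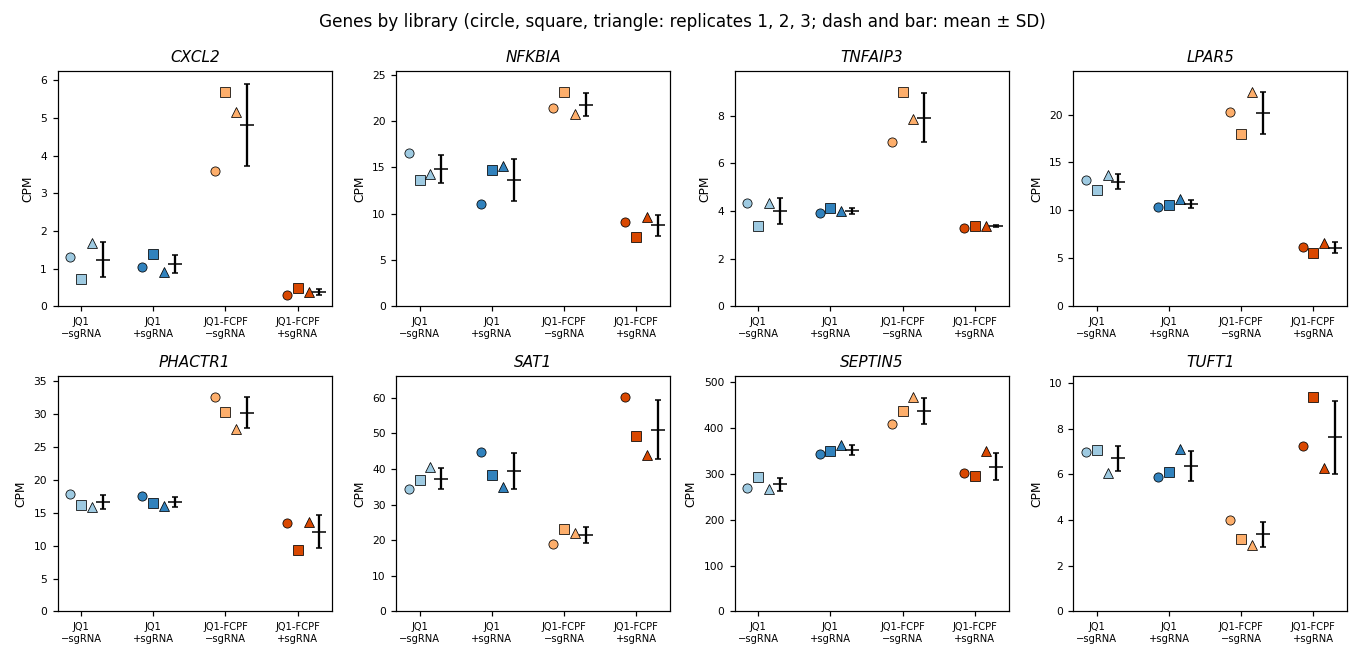
CPM (y axis, from 0) in the 12 libraries for 8 genes at which JQ1-FCPF without sgRNA stands apart from all 9 other libraries. Symbols are as in the plot of MYC and HES1, with the mean ± SD of each group. CXCL2, NFKBIA, LPAR5 and PHACTR1 have the 2 JQ1-FCPF groups on opposite sides of the JQ1 groups. TNFAIP3 and SEPTIN5 have JQ1-FCPF without sgRNA above the 9 other treated libraries, and SAT1 and TUFT1 have it below them. The control is not plotted.

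For 19 of the 65 lower genes the difference between the compounds was larger in size without sgRNA than with it. SEPTIN5, a septin of the cytoskeleton, stood at 409.9, 437 and 467 CPM in JQ1-FCPF without sgRNA and at 302, 296 and 349 CPM with it. Under JQ1 the order was the other way, with 343, 351 and 364 CPM with sgRNA and 270.5, 294 and 268 CPM without. The sgRNA change was -0.47 under JQ1-FCPF (adjusted p = 0.0104) and 0.35 under JQ1 (adjusted p = 0.688), and the difference of differences -0.82 ± 0.14 (adjusted p = 0.0122). ERMAP, a protein of the erythroid membrane, stood at 13.8, 11.4 and 13.6 CPM in JQ1-FCPF without sgRNA and 7.05 to 10.2 CPM elsewhere (-1.0, adjusted p = 0.0302). CCNT2, a cyclin of P-TEFb, was the 1 called of 35 tested BET, P-TEFb and elongation genes, of which 1 was called higher and 3 lower without the 2 libraries that stand apart (-1.03, adjusted p = 0.0376). It stood at 34.3, 39 and 30.7 CPM in JQ1-FCPF without sgRNA and 20.9, 19.6 and 19.7 CPM with it, and replicate 1 of JQ1 with sgRNA, at 37.1 CPM, lay within the range of the former. For CCNT2 the group that stood apart was JQ1-FCPF with sgRNA, below all other treated libraries. Its compound differences were near in size, 0.53 without sgRNA (adjusted p = 0.0544) and -0.50 with it (adjusted p = 0.101). On the scale set over all 15 libraries, SEPTIN5, ERMAP and CCNT2 had control means of 453, 15.8 and 31.2 CPM. JQ1-FCPF without sgRNA had 437, 12.9 and 34.6 CPM there.

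In 7 of the 65 lower genes the 2 sgRNA changes had opposite signs with sizes of at least 0.3. Among them were EPHA1, an ephrin receptor (-2.12 under JQ1-FCPF and 0.36 under JQ1), the homeobox gene NKX3-2 (-1.42 and 0.41) and CARD10, an adaptor in NF-kB signalling (-0.62 and 0.31). None of the changes under JQ1 passed the test (adjusted p = 0.819, 0.732 and 0.696). EPHA1 stood at 0.307, 0.394 and 0.307 CPM in JQ1-FCPF with sgRNA, which is a few reads per library.

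TXNIP, the thioredoxin-interacting protein, which also curbs glucose entry, headed the higher genes in expression level. The gene (chr1:145992435-145996600) stood at 294, 254 and 304 CPM in JQ1-FCPF with sgRNA and at 79.2, 88 and 71.2 CPM without it. Under JQ1 it stood at 136, 97.5 and 116 CPM with sgRNA and 66.5, 77.7 and 83.1 CPM without. The first group lies far above the 9 other libraries, replicate 2 included, and the JQ1 libraries with sgRNA lie above those without it. TXNIP rose by 1.84 with the sgRNA under JQ1-FCPF (adjusted p = 1.22e-07), and its value under JQ1 was 0.62 (adjusted p = 0.342). The difference of differences was 1.21 ± 0.18 (adjusted p = 0.00521). It was the 1 called of 29 tested genes of glucose uptake and TXNIP relatives, with a median of 0.09 (1 higher and 1 lower without the 2 libraries that stand apart, and a median of -0.003 without replicate 1 of JQ1 with sgRNA alone). Without sgRNA the compounds differed at TXNIP by 0.07 (95% interval -0.20 to 0.34).

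Replication-dependent histone genes made up 10 of the 16 higher genes. They encode the core histones that package new DNA in S phase, sit mostly in clusters on chromosome 6, and yield messages that end in a stem-loop. Of 64 listed, 45 had enough counts to be tested, and 10 were called higher and none lower. Over all genes 16 of 15218 were called higher and 65 lower. The list median was 1.04, with 43 of 45 above 0 (7623 of 15218 over all genes). H2BC21 (chr1:149884459-149886652) stood at 121, 74.2 and 94.4 CPM in JQ1-FCPF with sgRNA, 29.5, 31.1 and 32.5 CPM without, 53.5, 37.1 and 36.9 CPM in JQ1 with sgRNA and 29.4, 29.7 and 32.5 CPM without. Its value was 1.16 ± 0.23 (adjusted p = 0.0241). Replicate 2 was the lowest of the first 3 libraries and still above the 9 others. HIST1H3B stood at 16.6, 10.1 and 14.5 CPM in JQ1-FCPF with sgRNA, while the 9 other libraries lay between 3.21 and 7.79 CPM, and had the largest value of the 16, 2.27 ± 0.33 (adjusted p = 0.00521). The other 8 were H2BC7 (1.76), H2BC9 (1.57), H2AC11 (1.23), H2BC5 (1.08), H3C10 (1.04), H2BC4 (0.87), H2BC11 (0.84) and H2BC15 (0.83). In each of the 10, JQ1-FCPF with sgRNA was highest in all 3 libraries.

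Histone genes took 0.653%, 0.476% and 0.61% of the counts in replicates 1 to 3 of JQ1-FCPF with sgRNA and 0.393 to 0.471% in the other 9 libraries. Replicate 2 is thus the nearest of its group to the others. Without it and without replicate 1 of JQ1 with sgRNA, 24 histone genes were called higher (171 of 15182 over all genes) and the median was 1.20. Without the latter library alone, 7 were called higher (17 of 15161 over all genes) and the median was 0.99. Histone genes are near-identical copies and counts may be shared between them, so single values are uncertain. Of 35 tested G2/M genes none was called, with a median of 0.20 (1 higher and 1 lower without both libraries), and of the 43 E2F and S phase genes 29 lay below 0. What part cell cycle stage has in the histone result was not tested.

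Of the 10 called histone genes, 7 encode H2B. H2B promoters are known for an octamer element read by OCT1, and those of 4 of the 7 are shown because it lies within 120 bases of the start, where the other 3 hold no match. The letters ATTTGCAT, searched on both strands in the 250 bases before the start (RefSeq, GRCh38.p14), occurred in 5 of the 7, in 1.39% of the 10560 tested genes with a promoter in the RefSeq table and in 1.66% of all 27305 promoters there. CCAAT occurred in 7 of the 7 and in 35.3% of the tested genes, and TATAAA in 4 of the 7 and in 5.26%. In the 46 lower genes with a promoter in the table, CACGTG occurred in 15.2% and CACNAG in 21.7%, against 8.9% and 29.1% of the tested genes. Each line gives the 120 bases before the start, 5′ to 3′ on the gene's strand, with the octamer or its reverse complement in capitals.
H2BC7 (chr6:26199396-26199515, plus strand): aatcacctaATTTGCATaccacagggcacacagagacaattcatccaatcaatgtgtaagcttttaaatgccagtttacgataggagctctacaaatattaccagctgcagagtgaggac
H2BC9 (chr6:26251494-26251613, plus strand): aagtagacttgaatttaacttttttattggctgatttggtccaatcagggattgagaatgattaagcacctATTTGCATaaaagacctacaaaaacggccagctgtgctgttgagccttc
H2BC21 (chr1:149886683-149886802, minus strand): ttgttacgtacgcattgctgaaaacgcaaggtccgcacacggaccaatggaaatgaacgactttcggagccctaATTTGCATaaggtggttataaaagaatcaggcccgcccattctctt
H2BC11 (chr6:27132796-27132915, minus strand): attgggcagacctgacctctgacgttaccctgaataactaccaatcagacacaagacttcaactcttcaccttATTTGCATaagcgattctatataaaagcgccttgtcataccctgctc
In H2BC9, H2BC21 and H2BC11 the octamer begins 49, 46 and 47 bases before the start, and in H2BC7 111 bases before it. The letters are found in genes of a class known to share them, and they were not tested against the values. A match of letters is a description of the promoter and not a bound site.

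Among the higher genes outside the histones, SAT1, LTA4H and TUFT1 had JQ1-FCPF without sgRNA alone at the bottom. SAT1, the rate-limiting enzyme of polyamine breakdown, stood at 19, 23.2 and 22 CPM in JQ1-FCPF without sgRNA and at 60.1, 49.1 and 43.8 CPM with it. Under JQ1 it stood at 44.8, 38.2 and 35 CPM with sgRNA and 34.5, 36.9 and 40.5 CPM without, so that JQ1-FCPF with sgRNA overlaps the JQ1 groups. The sgRNA change was 1.25 under JQ1-FCPF (adjusted p = 1.43e-05) and 0.08 under JQ1 (adjusted p = 0.917), and the difference of differences 1.17 ± 0.19 (adjusted p = 0.00702). The control mean was 23.3 ± 1.76 CPM, near that of JQ1-FCPF without sgRNA. SAT1 was the 1 called of 14 tested polyamine genes. TUFT1, which encodes tuftelin, stood at 4.01, 3.17 and 2.93 CPM in JQ1-FCPF without sgRNA and 5.89 to 9.37 CPM in the 9 others (1.24 ± 0.27, adjusted p = 0.041). LTA4H, the enzyme that makes leukotriene B4, had 0.70 (adjusted p = 0.0404). SMAD6, an inhibitor of BMP signalling, stood at 42.3, 40.1 and 42.5 CPM in JQ1-FCPF with sgRNA and at 25.2 to 38.8 CPM in the 9 others (0.82, adjusted p = 0.0409). The noncoding gene LINC02432 had 1.31 (adjusted p = 0.00952), with both JQ1-FCPF groups apart.

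HEXIM1, which holds P-TEFb inactive and is widely read as a marker of BET inhibition, was not called. It stood at 168, 86.6 and 139 CPM in JQ1-FCPF with sgRNA, 130.4, 126 and 134 CPM without, 86.1, 86.4 and 80.8 CPM in JQ1 with sgRNA and 93.9, 93.7 and 105 CPM without. Replicate 2 of the first group lies with the JQ1 libraries, and replicates 1 and 3 lie above all others. On the scale set over all 15 libraries the control had 126.9 ± 6.96 CPM (SD). JQ1 with and without sgRNA had means of 84.3 and 97.3 CPM there, below the control, and JQ1-FCPF with and without sgRNA 131.0 and 129.8 CPM. These differences from the control were not tested. The difference of differences was 0.22 (95% interval -0.24 to 0.68, adjusted p = 0.708). With both of the deviating libraries left out it was 0.47 (adjusted p = 0.0355), and without replicate 2 of JQ1-FCPF with sgRNA alone 0.45 (adjusted p = 0.11). Without replicate 1 of that group alone it was 0.008 (adjusted p = 0.9925). Of 10 tested BET response markers, a list on which HEXIM1 stands, 5 were called higher and 0 lower. Over all genes 16 of 15218 were called higher and 65 lower. The 5 were TXNIP, SAT1, H2BC21, H2BC5 and H2BC4, and the list median was 0.69. Without the 2 libraries that stand apart, 7 were called higher and 1 lower (171 and 301 of 15182 over all genes). Without replicate 1 of JQ1 with sgRNA alone, 3 were called higher, as with a replicate block. The histone genes count here and above.

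Lists without a call include some whose medians lay away from 0. Immediate early genes, which answer growth signals within minutes, had a median of 0.36 over 26 tested and none called. FOS, a subunit of the AP-1 factor, stood at 83.9, 31.8 and 74.9 CPM in JQ1-FCPF with sgRNA and at 17.9, 23.0 and 24.9 CPM without. Under JQ1 it stood at 12.4, 7.54 and 6.0 CPM with sgRNA and 10.8, 8.67 and 9.86 CPM without, and its value was 1.71 (adjusted p = 0.0721). Without the 2 libraries that stand apart, 10 immediate early genes were called higher and 2 lower, with a median of 0.42. Over all genes 171 of 15182 were called higher and 301 lower in that setting. The 13 mitochondrially encoded genes had a median of -0.74, all below 0 and none called, and -0.21 without replicate 1 of JQ1 with sgRNA. The 74 cytosolic ribosomal protein genes had a median of 0.24 and none called, and 0.09 without that library. No member was called either among the lists of heat shock (24 tested), ATF4 and unfolded protein response (32), cholesterol and fatty acid synthesis (30), p53 (21), interferon (20) and NRF2 genes (20), Mediator and chromatin cofactors (39), or myeloid genes (9) and markers of other cells (9). Without the 2 libraries that stand apart, 3 heat shock and 2 cholesterol and fatty acid synthesis genes were called higher, and 3 ATF4 and unfolded protein response genes higher and 2 lower. In that setting 1 p53 target was called higher and 1 lower, 1 interferon gene higher, 1 NRF2 gene lower, 1 cofactor higher and 1 lower, 1 marker of other cells higher, and no myeloid gene.

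**Figure D4:**
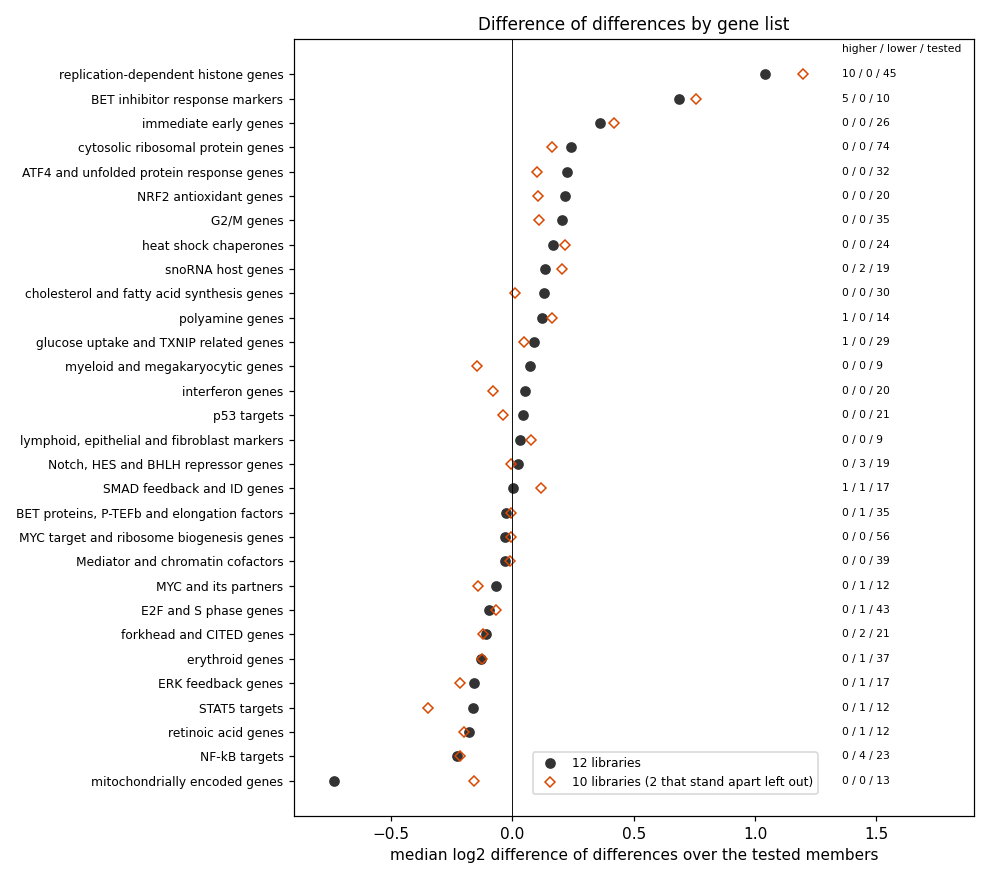
Median log2 difference of differences over the tested members of each of 30 gene lists (x axis), with all 12 libraries (filled circles) and without the 2 that stand apart (open diamonds), and the numbers called higher, called lower and tested at the right. Histone genes are highest at 1.04 and 1.20, and the mitochondrially encoded genes move from -0.74 to -0.16 between the symbols.

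The calls varied in number with the libraries used and not in direction. All 81 genes kept their sign under all 19 alternatives. The 81 were chosen in the main fit, and the alternatives share all or most of its libraries. A kept sign is therefore no separate support for the calls. Without both libraries that stand apart, all 81 were still called, among 473 genes in all, and without replicate 2 of JQ1-FCPF with sgRNA alone, all 81 among 257. Leaving out replicate 1, 2 or 3 of JQ1 without sgRNA left 25, 27 and 23 calls. For JQ1 with sgRNA the counts were 83, 35 and 29, for JQ1-FCPF without sgRNA 55, 35 and 22, and for replicates 1 and 3 of JQ1-FCPF with sgRNA 34 and 49. Of the 83, 62 were among the 81, and of the 22 calls all were. Called under all 19 were 19 genes. The lower ones were CXCL2, CXCL3, FOXA2, ZNF689, LPAR5, HES1, PHACTR1, MYC, SNHG15, E2F2, TGIF1, CCND1 and BHLHE40 with SLC40A1, the iron exporter ferroportin, and URGCP, which were picked out after their values were seen. The higher ones were TXNIP, SAT1, H2AC11 and HIST1H3B. The other named genes among the 81 were each called under 7 to 18 of the 19, and these include 8 of the 10 called histone genes. Of the 12 fits that each left out 1 library, H2BC4, H2BC5 and H2BC11 were called in 1. OTX1, CLCF1, RHOH, HEY1, CARD10, SOCS2, LMO2 and SMAD6 were called in 2 of those 12.

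**Figure D5:**
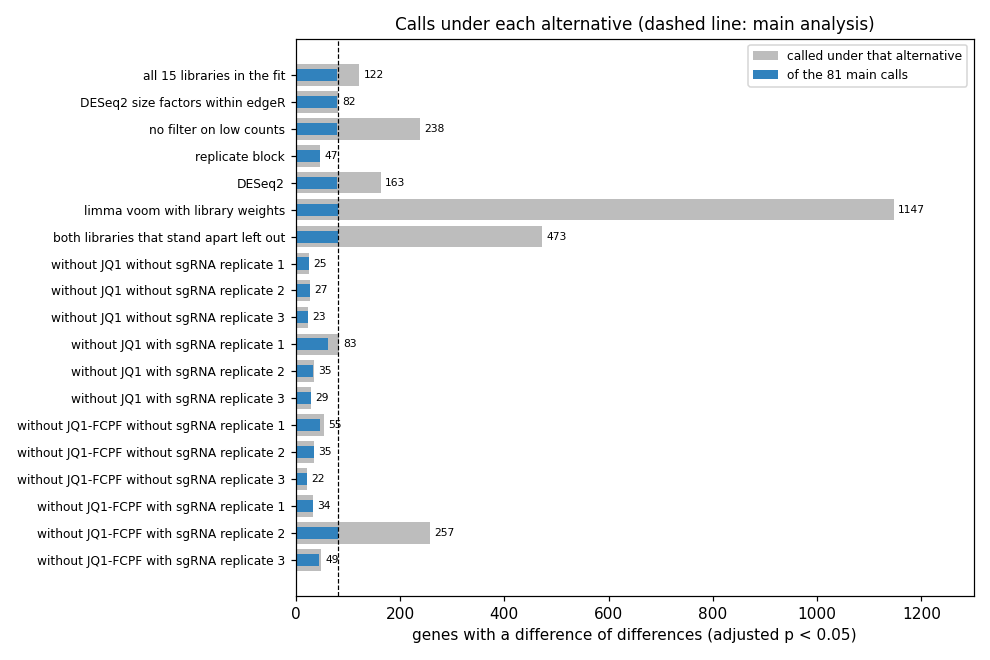
Number of genes called for the difference of differences (x axis, adjusted p under 0.05) under each of 19 alternatives, as grey bars, with the part that belongs to the 81 main calls in blue. The dashed line marks 81. Leaving out replicate 2 of JQ1-FCPF with sgRNA gives 257 calls with all 81 among them, and leaving out replicate 3 of JQ1-FCPF without sgRNA gives 22.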

How the data were processed

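RNA of K562 cells was extracted with Trizol and sequenced by Azenta, per the labels' protocols. The authors deposited whole-number counts of reads per gene, 1 table per library, in the column layout of a feature counter per the file headers. With aligner, build, annotation and strand setting not given in the sources used here, reads of overlapping or antisense genes may be shared. Of 57500 gene identifiers in each table, 56898 were found in GENCODE release 29, 96.3% of them at the same start and end, and its build, GRCh38, is used for coordinates. An Ensembl identifier table gave the symbols of 40907 genes, and GENCODE those of 15991.

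The deposited counts of the 12 treated libraries were fitted with edgeR 4.0.16 (R 4.3.3), with filterByExpr, TMM scaling and 1 mean per group without covariates. This left 15218 genes, with a biological coefficient of variation of 11.8%. The quasi-likelihood test was adjusted by Benjamini-Hochberg over all genes tested, at 0.05, for the difference of differences and its 4 component comparisons. SE is the log2 value divided by the root of the test's F, and levels are TMM-scaled CPM. Scripts were tested on simulated counts. No 2 libraries of a group agreed within counting noise (chi-square per degree of freedom of 2.76 to 43.2).

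Members and the 30 gene lists (859 genes, 1 not found in the files) were chosen with earlier results of these data known. Named genes are MYC and HEXIM1, then called genes: the 12 largest in each direction with a symbol, protein-coding type and a mean of at least 5 CPM, up to 4 per list, up to 5 with opposite sgRNA changes of at least 0.3, and up to 5 per group that stands apart. Some items are not reported here. Alternatives were a fit with the control (15 libraries), DESeq2 1.42.0, its size factors, no filter, a replicate block, library weights (limma 3.58.1), and leaving out each library or both that stand apart. Promoters are RefSeq's, build GRCh38.p14.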

Additional observations from a re-analysis of the deposited data

Results flagged for a closer look

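The sgRNA change differed between JQ1-FCPF and JQ1, by the test of that difference itself, for 81 genes, and the genes named in the report by its rule are listed here with its log2 difference of differences (edgeR, adjusted p under 0.05). Groups of 3 libraries are too small for a test of single libraries.

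Among regulators, the value was -1.24 for MYC, -1.39 for HES1, -0.84 for BHLHE40, -1.04 for HEY1, -1.8 for FOXA2, -1.13 for E2F2, -0.96 for TGIF1, -1.41 for OTX1, -1.83 for NKX3-2, -1.43 for CITED2, -1.62 for ZNF689, -0.64 for LMO2 and -1.03 for CCNT2. Among chemokine, NF-kB and cytokine genes it was -3.47 for CXCL2, -2.56 for CXCL3, -1.19 for NFKBIA, -1.23 for TNFAIP3, -0.93 for CARD10, -1.38 for CLCF1 and -0.69 for SOCS2. Among receptors, enzymes, cytoskeletal and membrane genes it was -2.48 for EPHA1, -1.44 for LPAR5, -1.26 for CYP26A1, -1.31 for PHACTR1, -1.24 for RHOH, -0.82 for SEPTIN5, -1 for ERMAP and -0.94 for CCND1. Noncoding hosts had -1.15 (SNHG15) and -0.93 (SNHG20), and AC010973.2, for which neither JQ1-FCPF group stood apart from the 9 other libraries, had -1.73.

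Values above 0 were 2.27 for HIST1H3B, 1.76 for H2BC7, 1.57 for H2BC9, 1.23 for H2AC11, 1.16 for H2BC21, 1.08 for H2BC5, 1.04 for H3C10, 0.87 for H2BC4, 0.84 for H2BC11 and 0.83 for H2BC15 among histone genes. Outside them they were 1.31 for LINC02432, 1.24 for TUFT1, 1.21 for TXNIP, 1.17 for SAT1, 0.82 for SMAD6 and 0.7 for LTA4H.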

How the results depend on the processing

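The 81 called genes and the other named gene, HEXIM1, kept their direction under the alternatives run. For HEXIM1 the value ran from 0.008 (without replicate 1 of JQ1-FCPF with sgRNA) to 0.47 (without both libraries that stand apart). The medians of 10 of the 30 gene lists changed sign under at least 1 of 6 alternatives computed for lists: MYC targets (-0.11 to 0.04), BET and P-TEFb (-0.07 to 0.03), Notch (-0.05 to 0.03), SMAD (-0.03 to 0.12), myeloid (-0.15 to 0.10), p53 (-0.04 to 0.05), cholesterol (-0.01 to 0.14), glucose (-0.003 to 0.151), interferon (-0.08 to 0.06) and markers of other cells (-0.10 to 0.14). Of the values of single named genes under the alternatives, 642 kept their side of the threshold, 268 fell short of it and 1 passed it (HEXIM1). Each setting is followed by the genes called for the difference of differences, with higher and lower in brackets. A fit of all 15 libraries gave 122 (30 and 92), no filter 238 (75 and 163), DESeq2 163 (62 and 101), limma with library weights 1147 (413 and 734) and leaving out both libraries that stand apart 473 (172 and 301), while DESeq2's size factors gave 82. Of the 81 calls, 79 or more were kept under each of these. Leaving out single libraries gave 22 to 257 (4 to 85 and 17 to 172), 271 to 1041 for the sgRNA under JQ1-FCPF, 0 to 4 for the sgRNA under JQ1, and 50 to 2456 and 1 to 2001 for JQ1-FCPF against JQ1 with and without sgRNA. The sgRNA under JQ1-FCPF gave 2704 calls with library weights and 1535 without both libraries. The sgRNA under JQ1 gave 64 with no filter, 4 with DESeq2, 63 with library weights and 4 without both libraries. JQ1-FCPF against JQ1 with sgRNA gave 458 (15 libraries), 667 (no filter), 468 (DESeq2), 3577 (library weights) and 3196 (without both libraries). The same without sgRNA gave 1210, 1220, 1118, 4772 and 3552. The cause of these changes was not tested.

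With the letter in the titles as a replicate block, 47 of the 81 genes were called and no others (10 higher and 37 lower), and the counts were 0 for the sgRNA under JQ1 and 173 and 450 for the compounds with and without sgRNA. Under it 6 histone genes were called higher, and 0 erythroid genes, STAT5 targets and BET and P-TEFb genes were called. No pairing by letter was seen, though deviations within groups of 3 libraries cannot exclude one. Deviations of same-lettered libraries correlated between -0.195 and 0.117, over 0.1 in 1 of 18 pairs. Those of differently lettered libraries were over 0.1 in 9 of 36 pairs, and 0 libraries correlated best with their own letter.

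Genes at a few CPM, such as EPHA1 and CXCL2, rest on few reads per library, and differences of differences below 0.63 in size were not called at this depth and spread.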
